A study of Mus musculus with 2 samples.

Results

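The major histocompatibility complex (MHC) of the mouse lies on chromosome 17 and surrounds Pou5f1, the gene for the pluripotency factor Oct4. It holds the class I genes, whose products present peptides from inside the cell, the class II genes, whose products present peptides taken up from outside, the genes that load peptides onto both, and a large cluster of olfactory receptor genes at its far end. Circular chromosome conformation capture with sequencing (4C-Seq) records which restriction sites were joined to a chosen bait sequence after cross-linking, cutting and ligation, and a site that is near the bait in the nucleus is joined to it more often. Here the contact sites of the Pou5f1 enhancer on both sides of the gene are described, from the class II region and beyond it on the left to the olfactory receptor cluster on the right.

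The cells were mouse ES (embryonic stem) cells of line E14, a single line derived from strain 129 mice, grown on gelatin in serum with LIF and fixed with formaldehyde. Enzyme-based 4C-Seq (HindIII, then DpnII) was performed in 2 replicates of this 1 group, and there was no untreated, unfixed or differentiated control. Each replicate had its own list of enriched regions, and a further table listed contacted HindIII sites in regions found in both, without saying which replicate a site came from. All listed sites of chromosome 17 that started less than 5 Mb from the annotated start of Pou5f1 were taken. Pou5f1 (ENSMUSG00000024406.9) occupies chromosome 17, 35642982 to 35647721, on the plus strand of mm9. These sites numbered 218 of the 1806 in the table (12.1%) and 17.9% of the 1216 sites on chromosome 17. To the left of Pou5f1 (lower coordinates) there were 125 sites and to the right 93.

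The files hold positions only. They do not give the number of reads behind each site, so a HindIII motif was either listed or not listed, and sites could not be ranked by strength. Background motifs were all other HindIII motifs of the mm9 reference in the region of replicate 1, outside the stretch around Pou5f1 that held no site. In this set 218 of 538 motifs were listed, a share of 40.5%. The region had been selected by the authors because many of its motifs were contacted, so this share describes the stretch and is not a rate for the chromosome. For shares the exact (Clopper-Pearson) 95% interval is given, and for a difference of 2 shares the Newcombe 95% interval. Both cover counting error only. Neighbouring motifs share a distance to the bait and are not replicates, and therefore no p-value was computed.

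The sequences of the sites that mark the limits of the contacts are shown first, with 30 bases of the reference on each side of the HindIII motif. All are from the plus strand of mm9, and capitals mark the HindIII motif. The innermost and the second innermost site of each side face the site-free stretch, and the outermost site ends the contacts on its side.
Innermost left, chr17:34598175-34598240: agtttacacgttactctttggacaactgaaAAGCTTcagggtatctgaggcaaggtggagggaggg
Second innermost left, chr17:34595700-34595765: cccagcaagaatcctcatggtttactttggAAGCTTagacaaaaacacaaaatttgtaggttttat
Outermost left, chr17:33678139-33678204: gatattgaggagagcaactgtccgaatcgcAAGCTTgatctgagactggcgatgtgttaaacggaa
Innermost right, chr17:36640742-36640807: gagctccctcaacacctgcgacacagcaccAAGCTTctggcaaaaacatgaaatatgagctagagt
Second innermost right, chr17:36650529-36650594: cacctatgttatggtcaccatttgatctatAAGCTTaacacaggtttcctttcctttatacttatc
Outermost right, chr17:37808232-37808297: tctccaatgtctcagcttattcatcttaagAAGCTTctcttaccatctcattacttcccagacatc

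The innermost left site lay 1045 kb from the Pou5f1 start, between genes, and its nearest protein-coding gene start was that of Btn3a3, a butyrophilin gene. The second innermost left site lay in an intron of BC051142. The outermost left site, 1965 kb from Pou5f1, lay in an intron of Adamts10, which encodes a secreted metalloprotease-like protein. On the right, the innermost site (998 kb) and the second innermost site (1008 kb) were intergenic and lay 41.5 and 33.5 kb from the starts of the class I-like genes H2-M10.4 and H2-M11. The outermost right site, 2165 kb from Pou5f1, was 708 bp from the start of the olfactory receptor gene Olfr118. All 6 of these sites had, on both sides, a 30-base flank found at no further HindIII motif of the assembly.

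Sites close to gene starts were chosen for display because the contacts of a promoter are those most often looked for in 4C-Seq. Sites in untranslated regions are not printed. The sites beside Pram1, which encodes an adaptor protein of myeloid cells, and H2-Eb2, a class II gene, were upstream of the gene. The Pram1 pair shows 2 listed motifs 21 bp apart, of which the second stands in lower case within the same window. The sites of Olfr109 and H2-M9 were in coding exons.
Pram1, chr17:33774754-33774819: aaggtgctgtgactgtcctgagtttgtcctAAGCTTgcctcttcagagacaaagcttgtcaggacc
H2-Eb2, chr17:34462368-34462433: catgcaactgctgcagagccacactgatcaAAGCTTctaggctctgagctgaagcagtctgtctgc
Rnf39, chr17:37079443-37079508: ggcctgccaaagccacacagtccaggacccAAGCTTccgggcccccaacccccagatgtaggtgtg
Olfr109, chr17:37603569-37603634: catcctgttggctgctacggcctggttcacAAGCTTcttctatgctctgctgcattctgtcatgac
H2-M9, chr17:36779039-36779104: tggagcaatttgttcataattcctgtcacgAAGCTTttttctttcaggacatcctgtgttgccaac

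Between the innermost sites there was a stretch of 2.04 Mb (34598211 to 36640771) without a listed site. It holds 119 protein-coding genes, Pou5f1 among them, and contains 498 HindIII motifs, of which 0 were listed. Of these motifs, 429 (86.1%) had a unique flank on at least 1 side, so a read could have been placed there. The limits of the stretch were near 1 Mb on both sides. On the right, the last unlisted motif before the first site lay 996 kb from the Pou5f1 start and the first site 998 kb from it. On the left, 4 unlisted motifs of the stretch were at least 1 Mb away. The position of the bait itself is not given in the sources used here, and all distances were measured from the gene start. In the mapping summary of the study, contacts less than 1 Mb from the bait were classed as proximal and kept apart from distal ones. The limits of the stretch lie close to that distance, and the lack of sites in it cannot be read as a lack of contact.

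**Figure D1:**
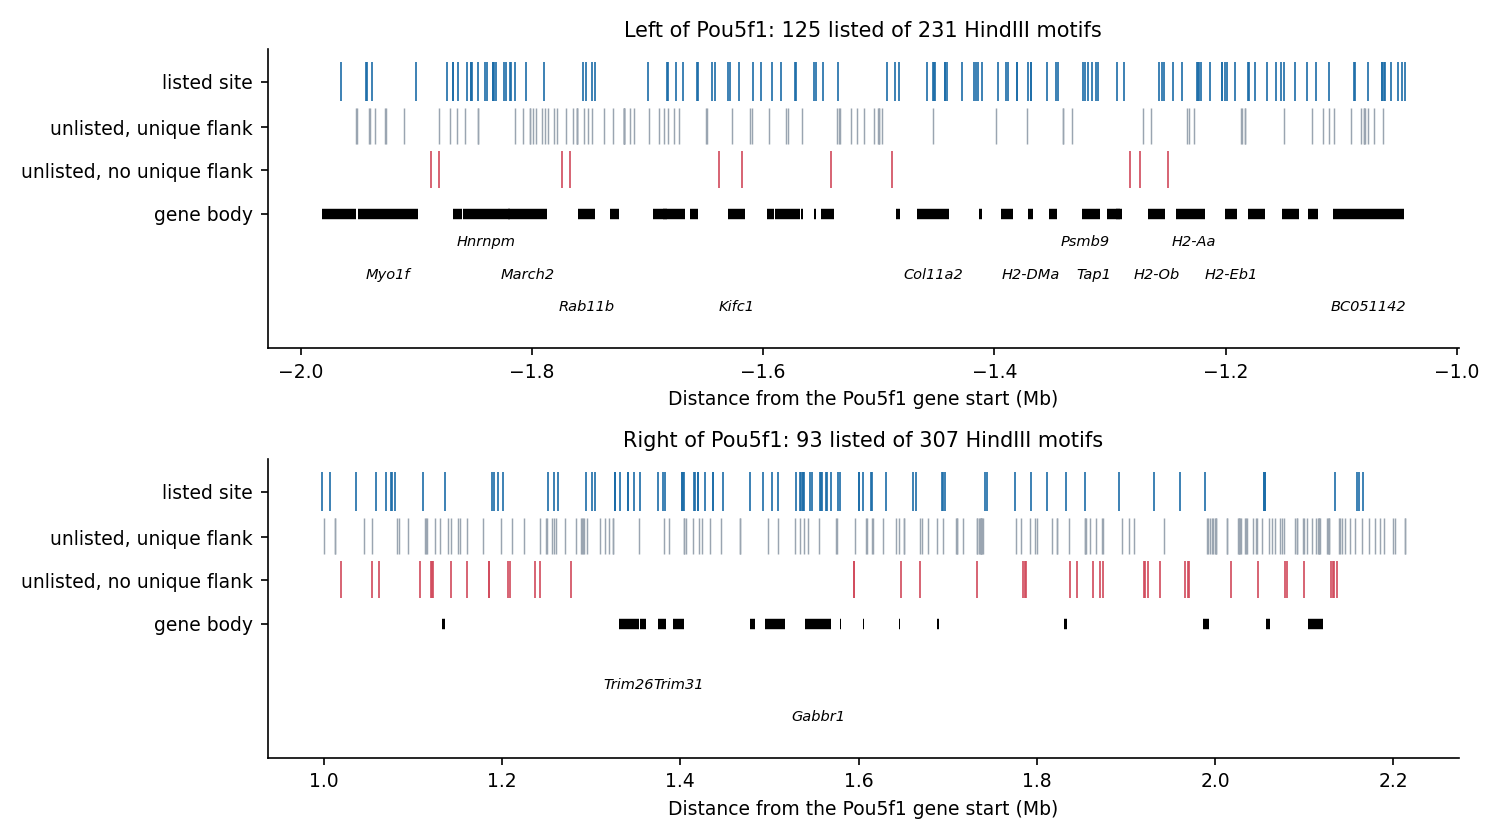
HindIII motifs on both sides of Pou5f1, each a vertical line at its distance from the Pou5f1 start (Mb, negative to the left): listed sites (blue), unlisted motifs with a unique flank (grey) and unlisted motifs without one (red). Black bars are the bodies of protein-coding genes that hold a motif, and genes with at least 3 listed sites are named. Listed sites fill most of the gene-rich left side, and on the right they thin out beyond the Trim genes and Gabbr1.

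The regions of the 2 replicates that held these sites were alike. The region of replicate 1 ran from 33678169 to 37855979 (4.18 Mb, 1036 motifs) and that of replicate 2 from 33468438 to 37883965 (4.42 Mb, 1101 motifs). Their mean length was 4.30 ± 0.168 Mb (SD, n = 2). The left edges were 210 kb apart and the right edges 28.0 kb apart. All 218 sites lay in both regions. The margins found only in replicate 2 held 55 motifs on the left and 10 on the right, and 0 of them were listed. Of the 1216 sites on chromosome 17, all lay in a region of replicate 1, 71 of them in no region of replicate 2, and 0 lay in a region of replicate 2 only. A motif in these margins may therefore have been unable to enter the table, and the 0 is not a measurement of contact there. The left edge of replicate 1 was itself the outermost left site, so that side of the background begins at a listed site.

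On the left, 125 of 231 motifs were listed, or 54.1% (47.5 to 60.7%). On the right, 93 of 307 were listed, or 30.3% (25.2 to 35.8%). The left share was higher by 23.8 points (15.4 to 31.8). With the wider region of replicate 2 as background, which counts the margin motifs that may not have been listable, the left share was 43.7% and the difference 14.4 points. The left sites spanned 0.920 Mb at 136 sites per Mb and the right sites 1.17 Mb at 79.7 sites per Mb.

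The 2 sides differ in what their motifs lie in. On the left 60.6% of motifs were in the body of a protein-coding gene, and on the right 14.3%. Within gene bodies the sides were close: 90 of 140 motifs (64.3%) were listed on the left and 28 of 44 (63.6%) on the right, a difference of 0.649 points (-14.4 to 17.2). Outside gene bodies 35 of 91 motifs (38.5%) were listed on the left and 65 of 263 (24.7%) on the right, a difference of 13.7 points (2.89 to 25.1). The interval for gene bodies is wide, because only 44 motifs of the right side lie in one.

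On both sides listed motifs were more often in gene bodies than unlisted motifs were. On the left 72.0% of the listed and 47.2% of the unlisted motifs lay in a gene body, a difference of 24.8 points (12.2 to 36.5). On the right it was 30.1% against 7.48%, a difference of 22.6 points (13.2 to 32.98). Restricting the count to motifs with a unique flank left 21.5 points on the left and 20.6 on the right. Few motifs lay in exons, and the intervals of exons and introns overlapped. Over both sides, 34 of 43 exonic motifs were listed (79.1%, 64.0 to 89.96%) and 84 of 141 intronic motifs (59.6%, 51.0 to 67.7%). Of these, 15 of 18 motifs in coding exons and 11 of 15 in untranslated regions were listed, and of intergenic motifs 100 of 354 (28.2%).

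**Figure D2:**
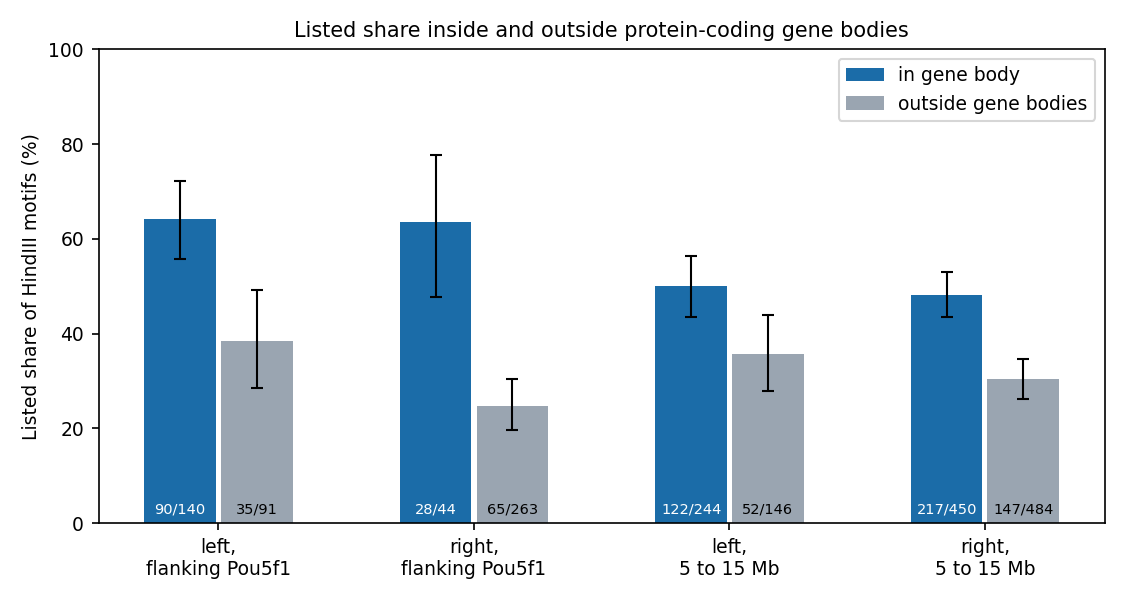
Listed share of HindIII motifs (%) inside (blue) and outside (grey) protein-coding gene bodies, on each side of Pou5f1 and in the regions 5 to 15 Mb away. Bars start at 0, error bars are exact 95% intervals, and the counts at the foot are listed over all motifs. Inside gene bodies the left and right flanks reached 64.3% and 63.6%, and outside them 38.5% and 24.7%.

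Listed and unlisted motifs were also compared in their distance to gene starts. Within 10 kb of a protein-coding gene start lay 64.0% of the listed and 58.5% of the unlisted motifs on the left, a difference of 5.51 points (-6.96 to 17.9). On the right the values were 60.2% and 52.3%, a difference of 7.88 points (-4.23 to 19.4). Both intervals include 0. With the margin motifs of replicate 2 in the background the left difference was 13.1 points (1.50 to 24.1), and with the starts of every protein-coding transcript the right difference was 12.7 points (0.822 to 23.6), so that neither interval then included 0. At 5 kb the difference was 12.6 points (-0.0783 to 24.6) on the left and 13.9 points (2.80 to 25.4) on the right. Of the motifs within 2 kb of a gene start, 23 of 33 were listed on the left (69.7%, 51.3 to 84.4%) and 15 of 29 on the right (51.7%, 32.5 to 70.6%). At 2 kb the difference between listed and unlisted motifs was 8.97 points (-0.185 to 17.7) on the left and 9.59 points (2.21 to 18.8) on the right. Within 20 kb the listed and unlisted motifs differed by 2.01 points on the left and 0.507 on the right.

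Base composition varied with listing as well. The GC content of the 500 bases on each side of a motif had a median of 46.3% for listed and 45.4% for unlisted motifs on the left, and of 42.3% and 39.96% on the right. Of motifs with a GC content up to 42%, 34.2% were listed on the left and 21.8% on the right. Between 42 and 46%, the shares were 51.2% and 44.4%. Above 46%, they were 63.1% and 52.6%. These limits were chosen after the values were seen. On the left 111 motifs were in the highest class and on the right 38. The part of GC content in the difference between gene bodies and other sequence was not tested.

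Whether a read can be placed at a motif depends on its flanks. A flank of 30 bases was called unique when no further HindIII motif of the assembly had it. Of motifs with no unique flank, 0 of 11 on the left and 0 of 45 on the right were listed, and the exact upper limit of the right share is 7.87% (3 counts of 45, the limit used here for a count of 0, would be 6.67%). Of motifs unique on 1 side only, 3 of 10 were listed on the left and 6 of 53 on the right. Of motifs unique on both sides, 122 of 210 (58.1%) were listed on the left and 87 of 209 (41.6%) on the right. Listed motifs were unique on both sides more often than unlisted ones, by 14.6 points (7.16 to 23.0) on the left and by 36.5 points (27.1 to 44.1) on the right. Among motifs with a unique flank, the left share was 56.8%, the right share 35.5% and their difference 21.3 points (12.4 to 29.8).

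The innermost motifs with no unique flank are shown for each side as examples of positions where a listed site could not have been placed uniquely. The left one lay 7243 bp from the start of the class II gene H2-Ab1, and the right one 21077 bp from that of H2-M11.
Left, chr17:34392881-34392946: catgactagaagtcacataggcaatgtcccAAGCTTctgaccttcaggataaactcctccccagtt
Right, chr17:36662913-36662978: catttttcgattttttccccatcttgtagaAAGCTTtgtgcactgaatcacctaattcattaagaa

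The sites were then compared in fragment size and in the motif of the second enzyme, DpnII. The median length of the HindIII fragments that meet at a motif was 3378 bp for listed and 3556 bp for unlisted motifs on the left, and 2999 and 3241 bp on the right. The means went the other way, with 4115 and 3869 bp on the left and 4351 and 3795 bp on the right. The quartile ranges overlapped on both sides. A DpnII motif was present in at least 1 neighbouring fragment of all 218 sites. It was present in both fragments for 84.0% of listed and 74.5% of unlisted motifs on the left (9.47 points, -0.965 to 20.01) and for 82.8% and 82.7% on the right.

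Along the chromosome the listed share rose and fell on each side rather than declining steadily with distance. In bins of 200 kb on the left it was 58.5% at 1 to 1.2 Mb, 71.1% at 1.2 to 1.4 Mb, 56.1% at 1.4 to 1.6 Mb, 33.3% at 1.6 to 1.8 Mb and 57.4% at 1.8 to 2 Mb. The highest left bin holds class II and peptide-loading genes, and the lowest the stretch around Rab11b, which encodes a small GTPase of recycling endosomes, and Angptl4, which encodes a lipoprotein lipase inhibitor. On the right it was 28.6% at 1 to 1.2 Mb, 39.1% at 1.2 to 1.4 Mb, 59.3% (45.0 to 72.4%) at 1.4 to 1.6 Mb, 28.3% at 1.6 to 1.8 Mb, 17.5% at 1.8 to 2 Mb and 11.9% (5.30 to 22.2%) at 2 to 2.2 Mb. The right peak holds Gabbr1, and the last bins hold olfactory receptor genes. Among motifs with a unique flank the right bins read 38.7, 43.9, 61.5, 31.9, 25 and 13.8%, in the same order of distance. The share of motifs in gene bodies was highest on the right in the peak bin (37.0%) and was 2.38 to 17.4% in the other 5 of these bins. On the left it was 80.9% in the outermost bin, where 57.4% of motifs were listed, and 57.8% in the bin with the highest listed share.

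**Figure D3:**
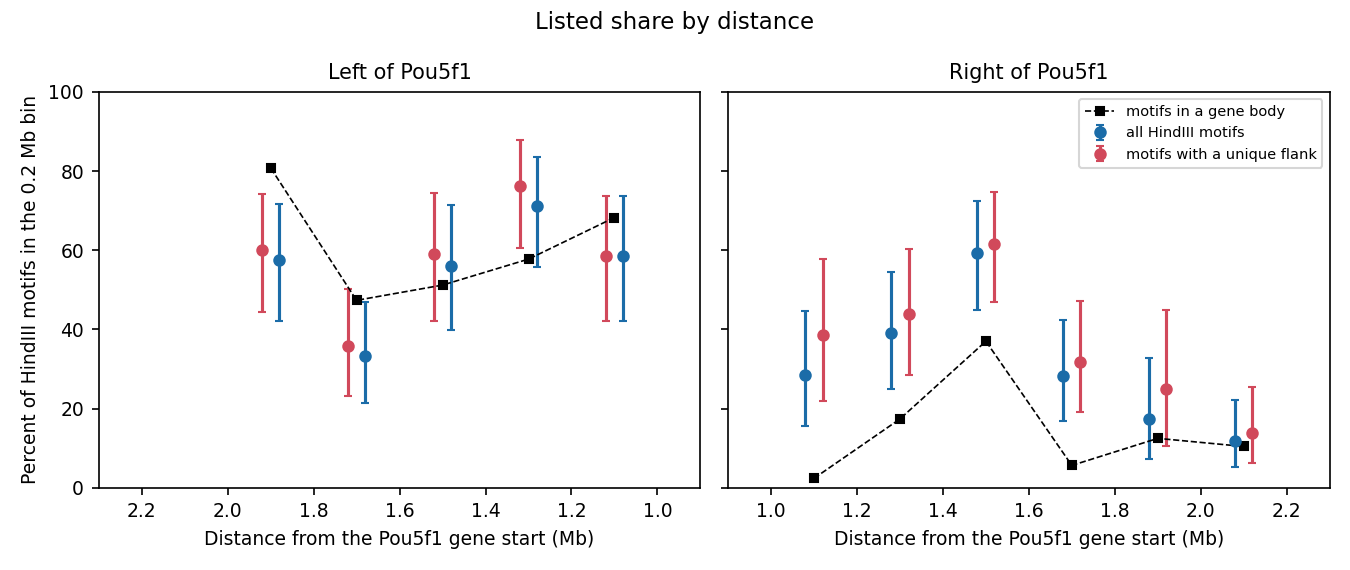
Percent of HindIII motifs in 0.2 Mb bins by distance from the Pou5f1 start (Mb), left panel for the left side (distance falls towards Pou5f1) and right panel for the right side: listed share of all motifs (blue), listed share of motifs with a unique flank (red) and share of motifs in a gene body (black squares). Error bars are exact 95% intervals, and bins with fewer than 5 motifs are left out. The left bins run from 33.3 to 71.1% and the right bins rise to 59.3% and fall to 11.9%.

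Listed motifs often lay side by side. With 54.1% of left and 30.3% of right motifs listed, many neighbours are both listed through the share alone. Whether the runs exceed what the share gives was not tested. On the left the 125 sites formed 44 runs of neighbouring listed motifs, 19 of them single sites, and 106 sites stood in runs of at least 2. On the right the 93 sites formed 50 runs, 30 of them single sites, and 63 sites stood in longer runs. The median spacing of sites was 5.28 kb on the left and 6.50 kb on the right. Both ends of the same HindIII fragment were listed for 81 fragments on the left and 43 on the right. The longest listed run had 12 motifs (33802798 to 33828374) and lay in Hnrnpm and the adjoining part of March2. Further left runs had 10 motifs across Col11a2 and H2-Oa (34190617 to 34232005), 10 across H2-Aa and H2-Eb1 (34418340 to 34451546) and 8 across Psmb9, Tap1 and Tap2 (34319922 to 34355252). The longest listed run on the right had 7 motifs at Trim26 (36969240 to 36991024).

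The longest gaps lay on the right. A run of 28 unlisted motifs (37703178 to 37776041) covered the olfactory receptor genes from Olfr112 to Olfr116, and 22 of the 28 had a unique flank. Another of 24 unlisted motifs (37633713 to 37695446) lay beside it at Olfr110 to Olfr112, and 22 of these had one. On the left the longest unlisted run had 11 motifs from March2 to Rab11b. The next had 10 motifs, all with a unique flank (34108422 to 34145930), whose nearest gene starts were those of Rps18 and H2-K1. Differences between the strain of the E14 line and the C57BL/6J reference in HindIII motifs or flanks were not tested.

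The class II genes lie on the left of Pou5f1. Their gene bodies held 22 motifs, of which 18 were listed (81.8%, 59.7 to 94.8%), against 64.3% of all motifs in gene bodies on that side, a value inside the interval. H2-Eb1 and H2-DMa had 3 of 3 motifs listed, H2-Eb2 2 of 2, and H2-Ab1, H2-DMb1 and H2-Oa 1 of 1. H2-Eb1, H2-Ab1 and H2-Aa encode chains of the presenting molecules, and the H2-DM and H2-O genes encode chaperones that govern peptide loading. H2-Ob had 3 of 4 motifs listed and H2-Aa 4 of 7. Of the 9 class II genes in the stretch, all 8 that held a motif thus had a listed site, as had 34 of all 36 left genes with a motif. When motifs were assigned to the nearest gene start instead, 29 of 44 were listed (65.9%, 50.1 to 79.5%), and the 54.1% of all left motifs is inside this interval.

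The genes of antigen processing also lie on the left, most of them among the class II genes. Tap1 (ENSMUSG00000037321.9), a subunit of the peptide transporter, and Psmb9, a subunit of the immunoproteasome, had 3 of 3 motifs listed. Tap2, the other subunit of the transporter, had 1 of 1 and Tapbp, which bridges the transporter and class I molecules and lies apart (34052844 to 34066235), 1 of 3. In all 8 of 10 motifs in this group were listed (80.0%, 44.4 to 97.5%), and the 64.3% of all motifs in gene bodies on the left is inside this interval. Of the further genes of the left side, Hnrnpm (ENSMUSG00000059208.7, 33783178 to 33823805), which encodes a splicing factor, had the most sites, with 15 of 18 motifs listed. It overlaps March2, which encodes a membrane ubiquitin ligase and had 5 of 13, so that motifs in the overlap count for both. BC051142 had 10 of 19 and the collagen gene Col11a2 7 of 8, and Myo1f, which encodes an unconventional myosin, 4 of 10.

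The genes fixed as regulators of chromatin and transcription held 6 sites among 10 motifs (60.0%, 26.2 to 87.8%), near the 64.1% of all motifs in gene bodies on both sides. Brd2, a bromodomain protein, had 2 of 2 and Ring1, a Polycomb subunit, 1 of 1. Daxx, a histone chaperone, had 1 of 2. Kank3, which is in the list but encodes an ankyrin repeat protein known for the actin cytoskeleton, had 1 of 3, and without it the group had 5 of 7 (71.4%, 29.0 to 96.3%). The genes of ribosome, splicing and chaperone functions held 17 of 23 (73.9%, 51.6 to 89.8%), with the 64.3% of the left side inside the interval, and of these Hnrnpm gave 15 of 18 and Rps28, a ribosomal protein gene, 2 of 4. Over the left side 36 genes held a motif, 34 of them a site, and in 16 every motif was listed. Angptl4 and H2-Ke2, each with 1 motif, had no site. H2-K1, the class I gene of the left side, held no motif in its body, and 0 of the 8 motifs nearest to its start were listed although all 8 had a unique flank.

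The right side begins with the H2-M genes, which belong to the class I family. Of 75 motifs nearest to a class I gene start there, 20 were listed (26.7%, 17.1 to 38.1%), and 18 of the 75 had no unique flank. Of the 57 that had one, 35.1% were listed. The shares over all right motifs, 30.3% and 35.5% with a unique flank, are close to these, so class I genes stood at the background of their side. Their gene bodies are small and held 2 motifs, in H2-M5 and H2-M9, both listed.

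The Trim genes, which encode ubiquitin ligases with a tripartite motif, follow. Their gene bodies held 12 motifs, of which 11 were listed (91.7%, 61.5 to 99.8%). The 63.6% of all motifs in gene bodies on the right, these included, is inside this interval. Trim26 and Trim31 had 4 of 4, Trim15 1 of 1 and Trim40 2 of 3. By nearest gene start, 15 of 25 motifs were listed (60.0%, 38.7 to 78.9%), all 25 with a unique flank, against 35.5% of all right motifs with a unique flank, these included. That comparison is not matched for gene bodies. Of right motifs with a unique flank, 63.6% were listed inside gene bodies and 29.8% outside them. Gabbr1 (ENSMUSG00000024462.10, 37182911 to 37212012), which encodes a subunit of the metabotropic GABA-B receptor, had the most sites on the right, with 8 of 10 motifs listed. Zfp57, a zinc finger gene required for keeping imprints, and Mog, a myelin gene, each had 1 of 2, and Ubd, a ubiquitin-like gene, 0 of 1. Of the 18 right genes with a motif, 14 had a site, and in 9 every motif was listed.

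The olfactory receptor genes, which are expressed in sensory neurons of the nose, fill the outer right side. Of the 166 motifs nearest to one of their 26 gene starts, 35 were listed (21.1%, 15.1 to 28.1%). Of the 140 with a unique flank 25% were listed, against 35.5% for all such motifs on the right, these included. That comparison is not matched for gene bodies. Outside gene bodies, 65 of the 218 right motifs with a unique flank were listed (29.8%). In the gene bodies 5 of 15 motifs were listed (33.3%, 11.8 to 61.6%), and the 63.6% of all motifs in gene bodies on the right, these included, lies above this interval. Olfr90, Olfr92, Olfr103 and Olfr109 had 1 of 1 listed, Olfr110 1 of 3, Olfr93 and Olfr112 0 of 1 each, and Olfr115 0 of 6. Without the motifs nearest to olfactory receptor genes, the right share was 41.1% and the left share was higher by 13.0 points (2.51 to 23.0).

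**Figure D4:**
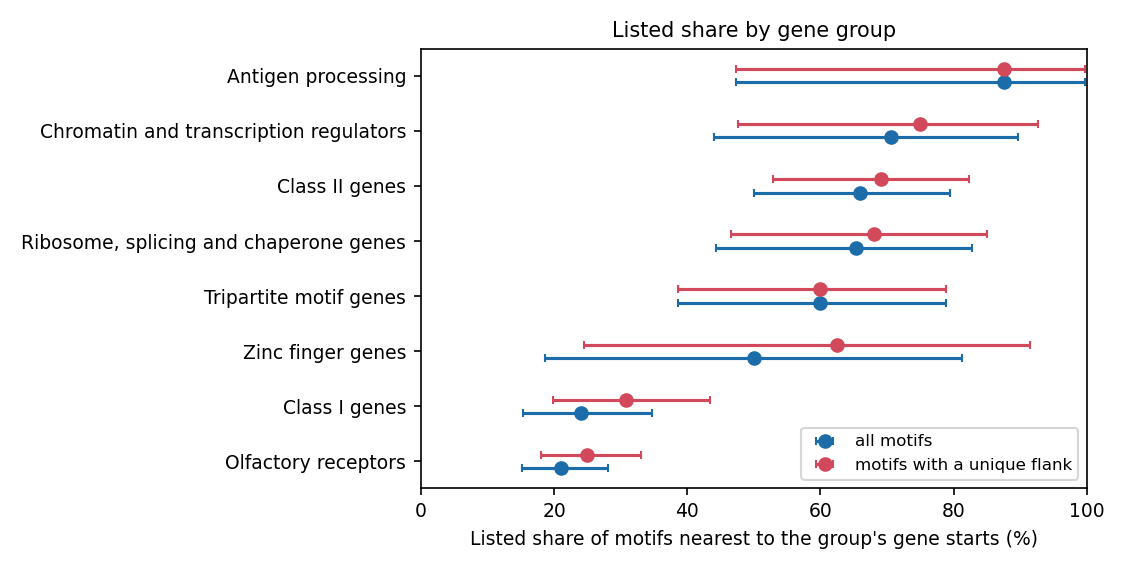
Listed share (%) of HindIII motifs assigned to the nearest protein-coding gene start, by gene group, for all motifs (blue) and motifs with a unique flank (red), both sides of Pou5f1 together. Points are shares and bars exact 95% intervals, for groups with at least 8 motifs. Class II genes, all on the left, stand at 65.9%, and 54.1% of all left motifs were listed. Olfactory receptor genes, all on the right, stand at 21.1%, and 30.3% of all right motifs were listed. The highest group is antigen processing, at 87.5% (7 of 8 motifs).

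The most similar sites on the chromosome were those 5 to 15 Mb from Pou5f1, counted in the regions of replicate 1. There 174 of 390 motifs (44.6%) were listed on the left and 364 of 934 (39.0%) on the right. In the stretches shared by both replicates the left count was the same and the right count was 351 of 884 (39.7%). The left flank of Pou5f1 had a share higher by 9.50 points (1.37 to 17.5) than the regions farther left. With the margin motifs of replicate 2 counted in both, the shares were 43.7% and 38.5%, and the interval of their difference included 0 (5.21 points, -2.04 to 12.5). The right flank differed from those farther right by -8.68 points (-14.5 to -2.50), and among motifs with a unique flank the difference was -4.50 points (-10.9 to 2.23), an interval that includes 0. Within gene bodies both flanks stood above the farther regions, by 14.3 points (3.97 to 24.0) on the left and by 15.4 points (-0.0592 to 28.8) on the right, and only the left interval excludes 0. Outside gene bodies the differences were 2.85 points (-9.48 to 15.4) on the left and -5.66 points (-12.1 to 1.14) on the right. Gene bodies held 14.3% of the motifs of the right flank and 48.2% of those farther right. With the margin motifs counted, the left difference in gene bodies was 12.0 points (2.32 to 21.3). The share inside gene bodies exceeded that outside by 25.8 points (12.7 to 37.8) in the left flank and by 38.9 points (23.1 to 52.4) in the right flank. At 5 to 15 Mb the same difference was 14.4 points (4.21 to 24.0) on the left and 17.9 points (11.6 to 23.9) on the right. Whether the flanks and the farther regions differ in this difference was not tested.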

How the data were processed

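The authors kept reads that began with the inverse PCR primer, mapped the rest with BWA to mm9 and matched them to HindIII sites. On chromosome 17 they scored windows of 100 HindIII sites and kept enriched ones at a permutation FDR of 5%, in each replicate alone. The deposited tables hold coordinates only. The study gives total tags per library and plots read counts at the intra-chromosomal sites, but the sources used here hold no number for each site. The reads needed to list a site are not given in them either, so no precision per site could be derived from depth.

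Here all HindIII motifs of the reference (NCBIM37, the mm9 assembly) were located with Python 3.11.15, and genes, exons and gene starts were taken from GENCODE M1. Shares, exact and Newcombe 95% intervals (SciPy 1.17.1) were checked on simulated data. Coordinates count from 1. The members, gene groups and comparisons were chosen with earlier results of these data known. Named genes were, per side, up to 10 with the most sites, plus those of the fixed groups and those at or nearest to the printed sites. Rab11b, Kifc1 (in a figure only), Angptl4, H2-Ke2, Mog and Ubd were named after their values were seen. The alternatives tried were other backgrounds, flank lengths, distances and gene sets. Sonication-based samples were not analysed here.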

Additional observations from a re-analysis of the deposited data

How the results depend on the processing

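Under 70 alternative values for 14 results, none changed direction where its interval excluded 0, and 58 stayed within the 95% interval of the reported value. Part of these 58 could not have moved. Around Pou5f1 the region of replicate 1 lies within that of replicate 2. The settings without replicate 2 and with the stretch shared by both therefore repeat the reported background of the flanks. The count of 58 is thus no measure of stability. The background decided the size of the left share. With motifs in the region of either replicate it was 43.7%, and the left minus right difference was 14.4 points. No replicate could be left out of the site table, which does not separate them. With the region of 1 replicate alone as background (without replicate 1 or without replicate 2), the left share ranged from 43.7 to 54.1%, the right share from 29.3 to 30.3% and their difference from 14.4 to 23.8 points, with the lower value for the region of replicate 2. That region adds 55 unlisted motifs on the left, which may not have been listable because every site of chromosome 17 lay in a region of replicate 1. When the motifs of either region were counted in the flank and in the regions 5 to 15 Mb to the left, the left flank was higher by 5.21 points and the interval included 0. The difference left minus right was 0.649 points with only motifs in gene bodies and 1.58 points when these also had a unique flank. It was 13.7 points with only motifs outside gene bodies, 12.9 points when these also had a unique flank, and 13.0 points without motifs nearest to an olfactory receptor gene start, where the right share was 41.1%. These 5 settings were chosen after seeing the data. The difference between listed and unlisted motifs in unique flanks was 25.1 points on the left with a flank of 20 bases, and 21.0 points on the right when 1 unique side was enough. The gene body and gene start differences stayed within their intervals under every alternative run, and the interval no longer included 0 for the left gene start difference with the region of replicate 2 (13.1 points) and for the right one with a limit of 5 kb (13.9 points) and with the starts of every transcript (12.7 points). No paired analysis was possible because there is only 1 group. The coordinates used here carry neither the number of reads per site nor the replicate of a site, so no share could be computed in each replicate alone.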
